A study of Mus musculus with 2 samples.

Results

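The genes described here encode the elastic core of elastic fibres, the fibrillin microfibrils around it and the proteins that assemble and cross-link them. They were taken by name as Eln, Fbn1, Fbn2, Fbln1, Fbln2, Fbln5, Mfap5, Lox, Loxl1 and Ltbp2, and every probe set that carried 1 of these symbols and no other was used. A probe set is a group of short probes on the array that reports 1 transcript region. The rule found 19 probe sets for 9 of the 10 genes, out of 18193 genes with a probe set of their own. Fbn1, the gene of the main adult fibrillin, is not analysed here.

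The samples were 2 cultures of the mouse osteosarcoma line MOS-J. The control group was MOS-J cells given a control lentivirus, and the DKK1 group was MOS-J cells given a lentivirus with the human DKK1 gene, whose secreted product blocks canonical Wnt signalling at the co-receptors LRP5 and LRP6. The treatment protocol also describes a plasmid route with drug selection and a red mitochondrial label followed by sorting, and it names both clones and stable lines without saying which were profiled. Each group had 1 array of total RNA, so no value has a replicate error, no test could be made, and every difference below is that of the DKK1 array minus the control array. The values are MAS5 signals, 1 linear intensity per probe set. Each array reads the average RNA of a culture, in which fewer expressing cells and less RNA per cell cannot be told apart.

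Elastic fibres let skin, lung and artery walls recoil, and microfibrils without elastin also run through the matrix of bone and its surface. Fibrillins form the microfibrils, tropoelastin from Eln is laid down on them with the help of fibulins, and lysyl oxidases join the elastin chains, as they also join collagen. Latent TGF-beta binding proteins and the small glycoprotein from Mfap5 sit on the microfibrils, where they take part in storing growth factors.

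Of the 10 genes, 7 were measured, meaning that at least 1 probe set had a mean of its 2 signals of 71.3 or more, the median of such means over the array. In the DKK1 cells 4 of these 7, namely Ltbp2, Fbln5, Lox and Loxl1, were at least 2-fold higher than in control cells, and 0 passed 2-fold downwards. By the same rule, 11.7% of all 11058 measured genes passed 2-fold upwards and 6.91% downwards. The rule asks for a mean difference of at least 1 in log2(signal + 16.6), with all measured probe sets of the gene on the same side, and such a gene is called below. The median difference of the 7 genes was 1.28, against 0.10 for all measured genes. Eln, Fbln1 and Mfap5 stayed under 2-fold, while both probe sets of Fbn2 and both of Fbln2 were too dim to be measured. In the plot of signals by probe set, the pairs of Lox, Fbln5 and Ltbp2 are the widest of those lying wholly to the right of the filter.

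**Figure D1:**
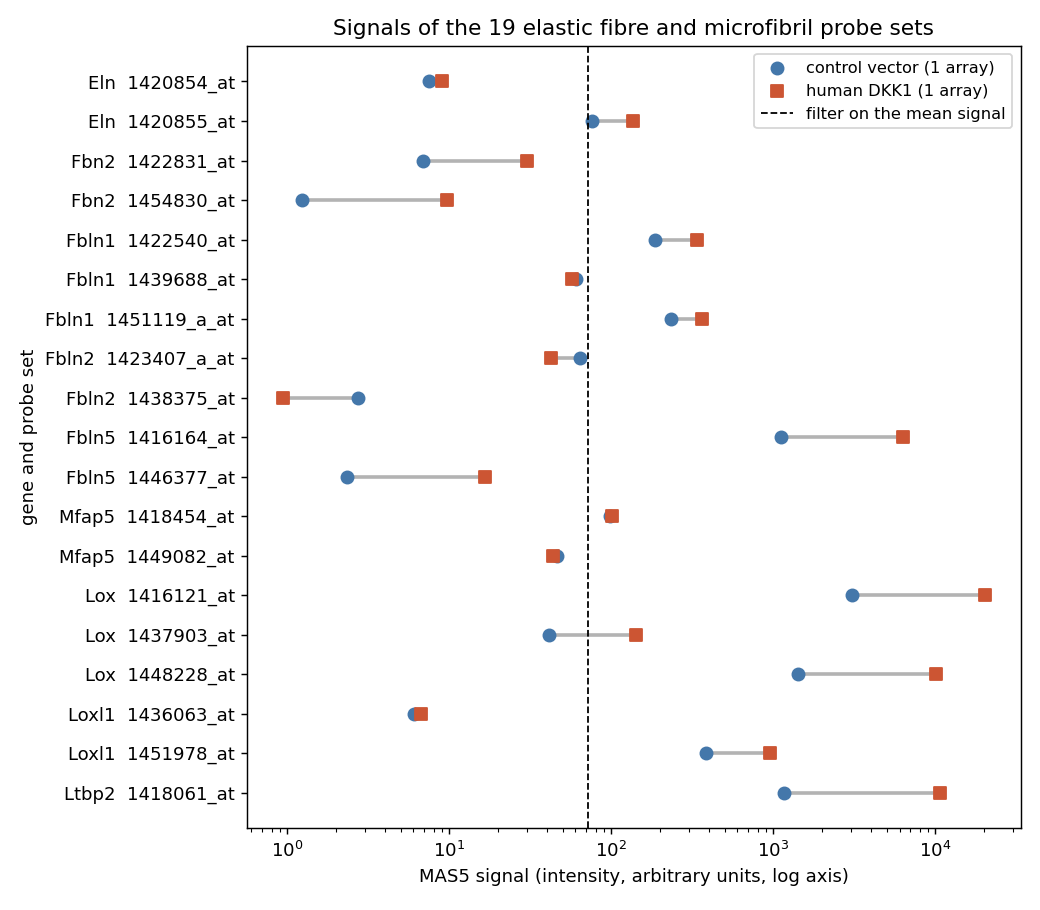
Each row is 1 probe set of an elastic fibre or microfibril gene, with its MAS5 signal on the control array (circle) and on the DKK1 array (square) on a log axis. The dashed line marks a signal of 71.3, the filter applied to the mean of the 2 signals, and 10 of the 19 probe sets passed it. Ltbp2 goes from 1161 to 10695 and the brightest Lox probe set from 3053 to 20320, while Mfap5 lies at 98.3 and 100.8.

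Lox encodes lysyl oxidase, the copper enzyme that oxidises lysines of elastin and collagen so that the chains cross-link. It has 3 probe sets and all of them passed the filter. Probe set 1416121_at read 3053 on the control and 20320 on the DKK1 array. Probe set 1448228_at read 1421 on the control and 10104 on the DKK1 array. The third, 1437903_at, read 41.0 on the control and 141.9 on the DKK1 array. All 3 were higher in the DKK1 cells, although the dim one passed the filter through its DKK1 signal and so could hardly have failed to differ in that direction. The differences in log2(signal + 16.6) were 2.73, 2.82 and 1.46 in that order. Their mean was 2.33 with an SD of 0.76 between the 3 probe sets, which describes agreement within the arrays and not the spread between cultures. With the dim control signal raised to the filter the mean fold was at least 4.55, and for the brighter probe sets alone the signals were 6.66-fold and 7.11-fold apart. Lox ranked 183 from the highest among the measured genes.

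Loxl1 encodes a lysyl oxidase relative that binds tropoelastin and is needed for elastic fibre upkeep in adult mice. Its probe set 1451978_at read 382 on the control and 953 on the DKK1 array, which is 2.50-fold and a difference of 1.28. Its other probe set, 1436063_at, had signals of 6.04 and 6.66 and reports little from either culture. The call of Loxl1 therefore rests on 1 probe set, and it ended when the dim one was counted too (0.66). It also ended when the arrays were scaled on the poly-A controls (0.66), which are RNAs added before labelling. Both enzymes were higher in DKK1 cells, and the difference of Loxl1 was the smaller.

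Ltbp2 encodes a latent TGF-beta binding protein that lies on fibrillin microfibrils and, unlike its relatives, does not bind latent TGF-beta itself. It has a single probe set, 1418061_at, reading 1161 on the control and 10695 on the DKK1 array. Both signals were far above the filter. The ratio was 9.21-fold and the difference 3.18, the largest of these genes and rank 72 from the highest of all measured genes.

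Fbln5 encodes fibulin-5, which ties tropoelastin to microfibrils and to cell surface integrins and also binds Loxl1 protein. Probe set 1416164_at read 1117 on the control and 6288 on the DKK1 array, which is 5.63-fold and a difference of 2.48. The second probe set, 1446377_at, read 2.33 on the control and 16.6 on the DKK1 array, both below the filter. It pointed the same way, but of all probe sets below the filter 47.8% differed at least 2-fold between these arrays when no constant was added. With both probe sets averaged the difference of Fbln5 was 1.64 and the call stood.

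Among the genes at least 2-fold higher, Ltbp2 and Fbln5 have RefSeq promoter windows that can be shown, and they are printed for that reason. Each window runs from 250 bases before to 50 bases after an annotated start, is given 5′ to 3′ along the gene, and comes from RefSeq on mouse build GRCm38.p6. Capitals mark matches, on either strand, to the motifs searched. SP1 was searched by the letters GGGCGG. SMAD proteins, which carry TGF-beta signals, were searched by the letters CAGAC. The Wnt factors TCF and LEF were searched by TCAAAG, the factor AP-1 by TGANTCA, the YAP partner TEAD by GGAATG and the TATA box by TATAAA. The CArG box of serum response factor was searched by its letter pattern, CC, then a run of A or T bases, then GG.
Ltbp2, chr12:84876442-84876741, minus strand: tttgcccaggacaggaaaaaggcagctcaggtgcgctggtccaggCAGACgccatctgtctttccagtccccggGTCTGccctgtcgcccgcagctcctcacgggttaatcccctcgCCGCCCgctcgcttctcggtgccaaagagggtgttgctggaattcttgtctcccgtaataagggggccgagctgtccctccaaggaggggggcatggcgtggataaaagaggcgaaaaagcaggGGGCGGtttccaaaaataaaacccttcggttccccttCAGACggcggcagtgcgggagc
Fbln5 first listed start, chr12:101819070-101819369, minus strand: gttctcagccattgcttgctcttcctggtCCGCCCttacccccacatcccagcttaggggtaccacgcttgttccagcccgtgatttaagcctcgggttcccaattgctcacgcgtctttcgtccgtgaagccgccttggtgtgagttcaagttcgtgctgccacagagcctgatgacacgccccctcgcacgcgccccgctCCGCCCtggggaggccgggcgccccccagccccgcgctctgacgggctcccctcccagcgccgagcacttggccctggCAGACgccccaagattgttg
Fbln5 second listed start, chr12:101818435-101818734, minus strand: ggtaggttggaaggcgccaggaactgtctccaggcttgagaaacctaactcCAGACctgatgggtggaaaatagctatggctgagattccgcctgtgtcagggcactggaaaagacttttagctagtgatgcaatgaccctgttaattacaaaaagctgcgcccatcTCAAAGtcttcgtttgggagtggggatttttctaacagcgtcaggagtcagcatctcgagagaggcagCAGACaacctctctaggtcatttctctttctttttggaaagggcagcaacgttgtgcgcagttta
The Ltbp2 window held 3 SMAD letter matches, at −205, −176 and 29 from the start, and 2 SP1 matches, at −133 and −9. In Fbln5 the first listed start had 2 SP1 matches, at −221 and −48, and a SMAD match at 31. The second had SMAD matches at −199 and −15 and a TCF/LEF match at −83. Matches to different motifs did not overlap. None of these windows held a match to the AP-1, TEAD, TATA or CArG letters, which occur in 7.81%, 14.7%, 13.6% and 1.63% of the 32851 windows in the table. The SMAD letters occur in 49.6% of them, those of SP1 in 35.7% and those of TCF/LEF in 16%. Of the 10 genes, 5 had windows in the table that could be used, 7 windows in all. The SMAD letters were in 5 of these windows, from 3 genes, including both overlapping windows of Fbln1, a gene under 2-fold. The SP1 letters were also in 5 windows, from all 5 genes, and those of TCF/LEF in 2 windows, from 2 genes. A match of letters is a description of the window, and the arrays hold no measurement of binding there.

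Eln encodes tropoelastin, the elastic core protein. Its probe set 1420855_at read 76.4 on the control and 136.7 on the DKK1 array, and 1420854_at had 7.53 and 8.97. The brighter pair lies just above the filter of 71.3. It differed by 0.72 (1.79-fold), under the 2-fold mark, and with the dim probe set averaged in by 0.40. Elastin, the namesake of the fibre, was thus not among the genes past 2-fold.

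Fbln1 encodes fibulin-1, which binds elastin, fibronectin and basement membrane proteins. Probe set 1451119_a_at read 232.9 on the control and 361 on the DKK1 array. Probe set 1422540_at read 185.8 on the control and 339 on the DKK1 array. Probe set 1439688_at had 60.9 and 57.0, both below the filter. Over the 2 measured probe sets the difference was 0.71 with an SD of 0.15, and both pairs lay in the same direction. Of the fibulins, then, Fbln5 was past 2-fold and Fbln1 was not. Fbln2, which encodes the fibulin that binds elastin and perlecan in vessel walls, read 63.9 on the control and 42.3 on the DKK1 array at 1423407_a_at and 2.72 and 0.934 at 1438375_at. Both of its probe sets were below the filter and no fold is given.

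The microfibril genes besides Ltbp2 were dim or alike on both arrays. Mfap5 encodes a glycoprotein that binds fibrillins and integrins. Its probe set 1418454_at read 98.3 on the control and 100.8 on the DKK1 array, a difference of 0.03, and 1449082_at had 46.4 and 43.4. Fbn2 encodes the fibrillin that prevails in the embryo. It read 6.87 on the control and 30.0 on the DKK1 array at 1422831_at, and 1.23 and 9.63 at 1454830_at, all below the filter. Both pairs were higher in DKK1 cells, in a range where such signals carry little information.

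**Figure D2:**
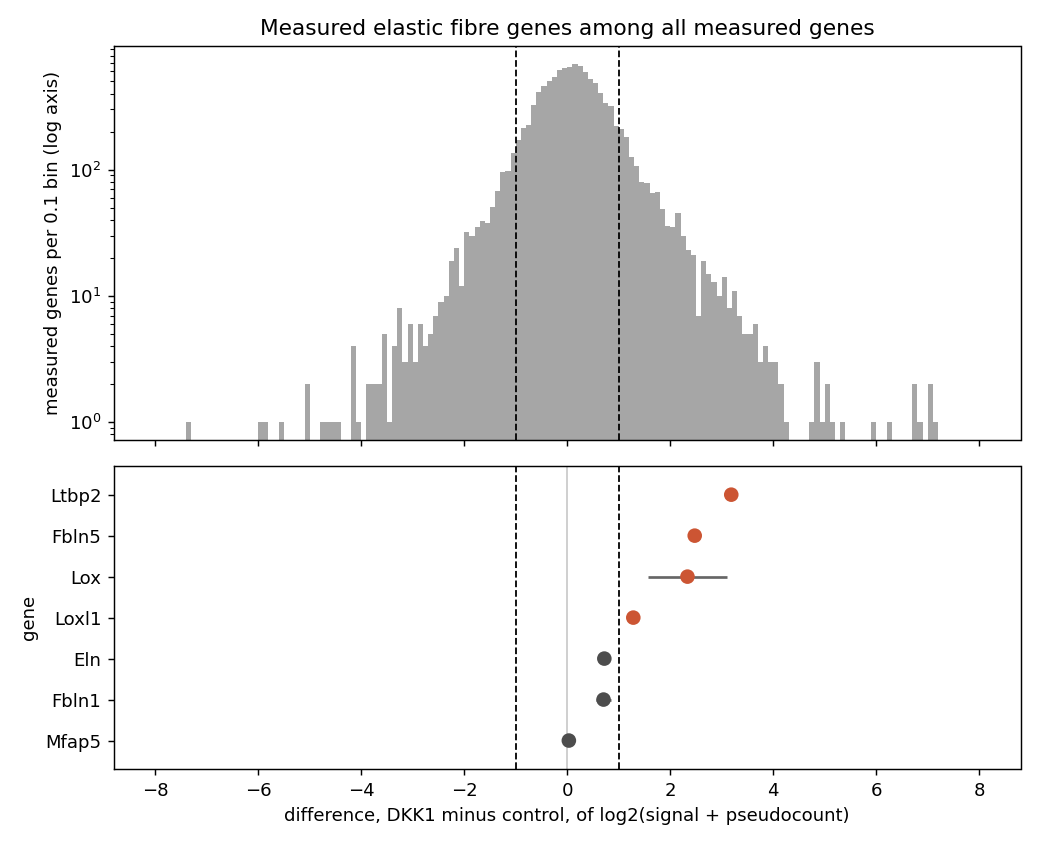
The upper panel counts all 11058 measured genes by their difference in log2(signal + 16.6), DKK1 minus control, on a log count axis, and the lower panel shows the 7 measured elastic fibre and microfibril genes on the same axis. Bars are the SD between probe sets where a gene has several measured ones (Lox, 0.76, and Fbln1, 0.15), dashed lines mark 2-fold, and Ltbp2, Fbln5, Lox and Loxl1 lie to the right of the upper one.

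The 4 genes past 2-fold encode 2 cross-linking enzymes, 1 microfibril protein and 1 fibulin. Their places in the order of all measured genes were 72 for Ltbp2, 155 for Fbln5, 183 for Lox and 813 for Loxl1. Eln stood at 2113, Fbln1 at 2167 and Mfap5 at 5972. The differences of Fbln5 (2.48) and Lox (2.33) lay closer together than the 0.76 SD between the probe sets of Lox, and those of Eln and Fbln1 (0.72 and 0.71) lay closer than the 0.15 SD of Fbln1.

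Scaling on the hybridisation or poly-A controls shifted all genes together and decided which genes near 2-fold were called. Loess and quantile normalization, which depend on signal level, did not shift them together. Under loess Eln stood at 0.39 and Mfap5 at −0.31, against 0.72 and 0.03 as deposited. Ltbp2 stood at 3.29 and Fbln5 at 2.56 there, against 3.18 and 2.48. The arrays were deposited with the same trimmed mean. Hybridisation controls, added after labelling, were lower on the DKK1 array, with a median log2 ratio of −0.37 over 18 probe sets, and the 20 poly-A controls above the filter were higher, with a median of 0.64. Scaling on the first moved the median of all measured genes from 0.10 to 0.47, and on the second to −0.53. Relative to that median, Ltbp2 stood at 3.08 as deposited, 3.09 on the hybridisation controls and 3.07 on the poly-A controls. Loxl1 stood at 1.18 under all 3. Eln and Fbln1 passed 2-fold with the hybridisation controls, at 1.06 each. The share of all measured genes at least 2-fold higher was then 22.0%, and with the poly-A controls it was 4.13%. Ltbp2, Fbln5 and Lox were at least 2-fold higher under all 12 alternatives run. The direction of Mfap5 was not settled, at 0.36 and −0.50 under the 2 control scalings. In the plot of differences by processing, the control scalings move these genes and the median of all genes the same way. Without the filter Fbln5 and Loxl1 fall while that median hardly moves, and under the stricter filter, which leaves out its dim probe set, Lox stands at 2.77.

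**Figure D3:**
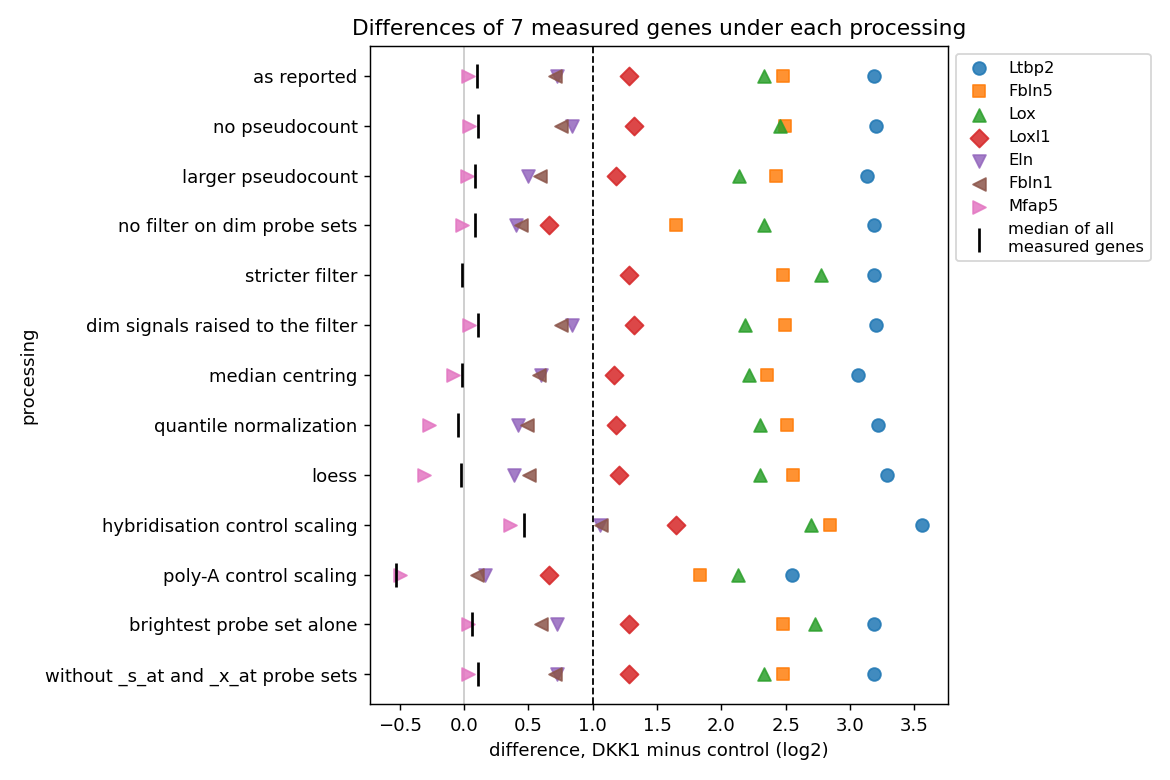
Each row is 1 way of processing the 2 arrays, each symbol the difference (log2, DKK1 minus control) of 1 measured gene, the black bar the median of all measured genes, and the dashed line 2-fold. Ltbp2, Fbln5 and Lox lie right of the line in every row, and Loxl1 falls left of it without the filter and with poly-A scaling. Genes with no measured probe set under the stricter filter have no symbol there.

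A further 40 genes of elastic fibre assembly, growth factor storage and breakdown were listed, of which 36 had a probe set and 25 were measured. In DKK1 cells 10 of the 25 passed 2-fold upwards and 1 downwards, beside the 11.7% and 6.91% of all measured genes. The median difference was 0.64. It turned to −0.06 with the poly-A controls, where 4 of 24 were called higher and 3 lower, beside 4.13% and 24.3% of all measured genes. With the hybridisation controls it was 1.01, where 14 of 26 were called higher and 1 lower, beside 22.0% and 3.48%. Among surface proteins of the fibre, Emilin1, an elastin microfibril interface protein, had signals of 1004 and 95.5 in control against 4442 and 336 in DKK1 cells, a difference of 1.89 (SD 0.34 between 2 probe sets). Fbln7, which encodes a fibulin of teeth and cartilage, went from 195.3 in control to 3571 in DKK1 cells, a difference of 4.08. That exceeded every difference among the 7 measured genes above. Mfap2, the close relative of Mfap5, read 16.7 on the control and 122.9 on the DKK1 array at 1417359_at, just short of the filter in its mean, and 23.0 and 30.2 at 1447833_x_at. With the hybridisation controls Mfap2 passed the filter, through its DKK1 signal alone, and was called higher (2.40). Mfap4 (2.63 and 3.08) and Efemp1, the gene of fibulin-3 (17.9 and 33.1), were below the filter on both arrays. Efemp2 and Loxl2 are not analysed here.

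The other latent TGF-beta binding proteins were 3 measured genes. Ltbp3, which holds latent TGF-beta in bone and other matrix, was higher by 1.73 (SD 0.29 between 4 probe sets), and its brightest probe set read 6332 on the control and 20921 on the DKK1 array. Ltbp4, which helps fibulin-5 lay down elastin, had 166.8 and 356 (1.02), a call that ended under 5 alternatives (lowest 0.42). Ltbp1 differed by 0.67 (SD 0.25 between 2 probe sets) and was not called, except on the hybridisation controls (1.02). Of the growth factor genes, Tgfb3 read 152.3 on the control and 725 on the DKK1 array (2.13). Tgfb1 had 111.4 and 155.7 (0.43) at its measured probe set and was not called. Its dim probe set had 25.3 and 8.72. The direction of Tgfb1 was not settled, at −0.15 without the filter and −0.14 on the poly-A controls. Tgfb2 was not called at −0.52 (SD 0.20), with all 3 measured probe sets below 0, and was called lower on the poly-A controls (−1.07). Among 4 measured lysyl oxidase and maturation genes only Loxl3, a further lysyl oxidase, passed 2-fold, reading 1517 on the control and 3636 on the DKK1 array (1.25), and its call ended with the poly-A controls (0.62).

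Several ADAMTS and ADAMTS-like proteins bind fibrillin microfibrils. Of 5 measured, 3 were called higher and 0 lower, beside 11.7% and 6.91% of all measured genes. Adamtsl3 (0.81) was not called, except as higher on the hybridisation controls (1.17). Adamtsl5 (−0.64) was not called, except as lower on the poly-A controls (−1.15), and its 2 probe sets differed by −1.35 and 0.08. Adamts6 read 10.3 on the control and 143.8 on the DKK1 array, at least 2.02-fold. It passed the filter through its DKK1 signal alone, which all but fixed its direction, and it was measured under 9 of the 12 alternatives. Adamtsl4 had 466 and 1274 (1.42), a call that ended with the poly-A controls (0.79). Adamts10 had 75.8 and 194.8 (1.19), and its call ended under 5 alternatives (lowest 0.61). Glb1, whose splice form is a subunit of the elastin receptor complex, was the 1 called of 3 measured genes of that complex, with 948 and 1947 (1.02), and its call ended under 3 alternatives (lowest 0.39). Of the 4 measured proteases that can cut elastin, none was at least 2-fold higher. Ctsk, the osteoclast and fibroblast protease cathepsin K, was at least 9.46-fold lower, reading 674 on the control and 16.0 on the DKK1 array. Its single probe set passed the filter through the control signal alone, which all but fixed its direction. The other 3 lay between −0.29 and −0.18.

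**Figure D4:**
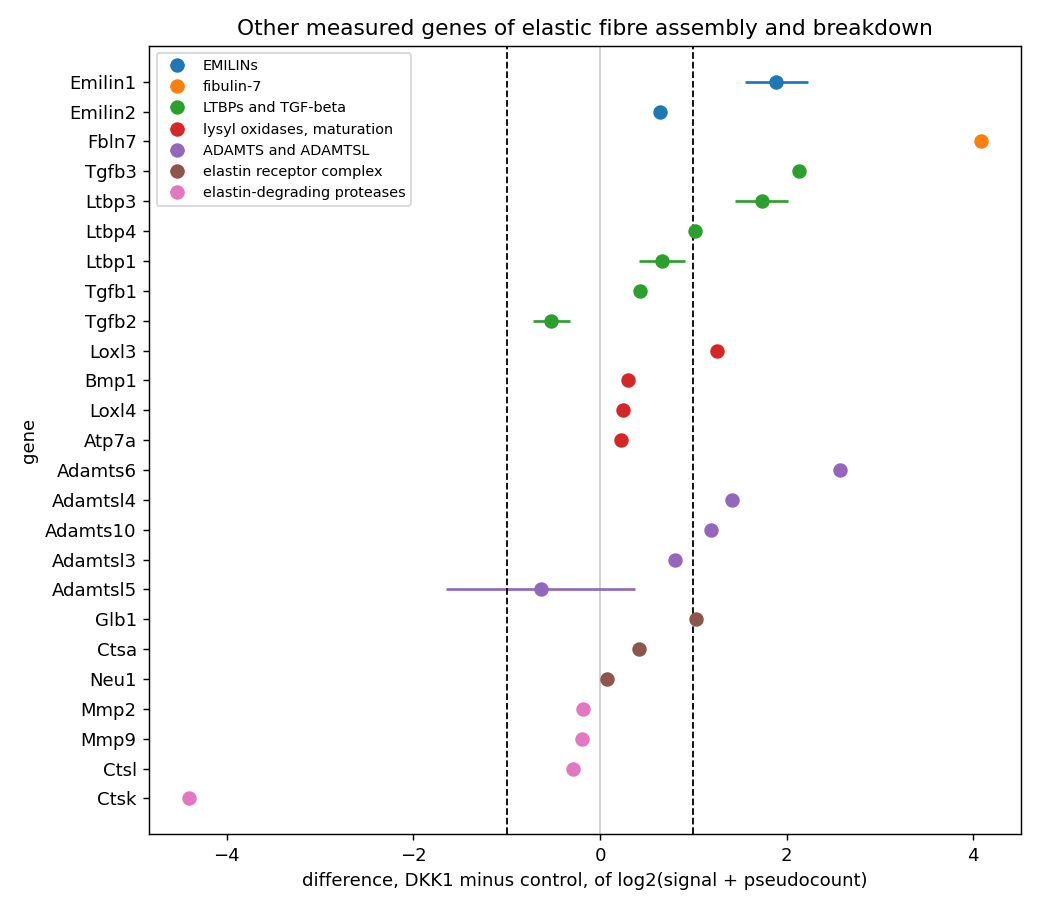
Each point is 1 of the 25 other measured genes of elastic fibre assembly and breakdown, coloured by its role, at its difference in log2(signal + 16.6), DKK1 minus control, with the SD between probe sets as a bar where there are several. Dashed lines mark 2-fold. Fbln7 (4.08) lies farthest to the right and Ctsk (−4.41) farthest to the left.

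Markers of the labelled cell type and of others were read on the same arrays. Of 10 osteoblast markers 6 had a probe set and 4 were measured, with Ibsp and Dmp1 below the filter, Sp7 and Alpl above it on both arrays and under 2-fold. The 2 probe sets of Col1a1 differed by 0.05 and 1.54, and their mean of 0.79 was not called, though it was with the brighter one alone (1.54) and on the hybridisation controls (1.16). Phex read 199.9 on the control and 1.97 on the DKK1 array at its measured probe set, which passed the filter through the control signal alone, and its call ended when the dim one (2.42 and 4.43) was included. Smooth muscle cells also make elastic fibre proteins, and of their 7 listed markers 4 were measured. Of these, 3 were at least 2-fold higher (Acta2, Tagln and Lmod1), beside 11.7% of all measured genes. Smtn, above the filter on both arrays, read 135.9 on the control and 178.9 on the DKK1 array (0.36) and was not called. Tagln (14.5 and 246.5), Lmod1 (36.5 and 169.6) and the dimmer measured probe set of Acta2 (12.3 and 226.3) passed the filter through the DKK1 signal alone, which all but fixed their direction. The summed signal of the whole smooth muscle list was 7503 in control and 31400.4 in DKK1 cells, of which 1 Acta2 probe set, 1416454_s_at, gave 7148 and 30355. Myh11, Cnn1 and Des were below the filter on both arrays. Cnn1 read 3.75 on the control and 62.8 on the DKK1 array. Both probe sets of Myh11 were also higher on the DKK1 array, and both of Des were lower there. The part of such cells or of a contractile state in the values of Lox, Fbln5 and Ltbp2 was not tested. Of 7 chondrocyte markers 3 were measured, of which Col9a1 was called higher, a call that ended under 6 alternatives. Its measured probe set (48.0 and 112.8) passed the filter through the DKK1 signal alone, and its dim one read 50.7 and 34.3. Sox9 (−0.19) and Comp (0.42) were not called. Both measured probe sets of Sox9 lay above the filter on both arrays and were lower on the DKK1 array. Of 6 endothelial markers 1 was measured and 0 were called, and of 5 epithelial markers 2 were measured and 0 were called. Of 9 leukocyte markers 3 were measured and Lyz2 was called higher, though not with dim signals raised to the filter (0.93). Lyz2 (14.5 and 136.1) also passed the filter through its DKK1 signal alone. RNA integrity was read from the ratio of 3′ to 5′ signal. For Gapdh it was 0.823 on the control and 0.759 on the DKK1 array, and for Actb it was 1.61 and 1.25.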

How the data were processed

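Biotin-labelled RNA was made from 500 ng of total RNA by 3′ in vitro transcription for Affymetrix mouse arrays, per the labels' protocols. The deposited table holds linear intensity values for 45101 probe sets, which the authors made with MAS5 of unstated version, per the submitters' processing notes. Trimming 2% at each end left a mean of 500 on either array, so each was scaled on its own, and a shift shared by all genes cannot be seen. Detection calls and scan dates were not used here, and array and group cannot be told apart. The number of arrays limits the precision.

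Of the probe sets, 34958 have 1 gene symbol, 932 several and 9211 none in the platform annotation, and 34754 of the first matched RefSeq (GRCm38.p6) by gene ID with no symbol changed. The 64 Affymetrix control probe sets were left out of the gene values and calls. They were among the signals from which the constant, the filter and the trimmed mean were taken. Differences, the filter and the calling rule are as given in the report, and the constant of 16.6 was set at percentile 25 of the signals on both arrays. A fold on the log2(signal + 16.6) scale understates the change of dim genes, so folds quoted are ratios of signals, with signals below the filter raised to it for "at least". With 1 array a group no p-value was computed. The calling scripts were tested on simulated data with changes planted in bright genes only, so that test does not cover genes near the filter. Python 3.11.15, pandas 2.3.3 and statsmodels 0.14.6 were used.

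The genes, lists, motifs and rules were chosen with earlier results of these data known. All 10 genes are named, with every probe set, and from each other list up to 3 called genes with the largest differences and Mfap2, Mfap4, Efemp1, Efemp2, Ltbp1, Loxl2 and Tgfb1 in any case. The values given for Tgfb2, Adamtsl3 and Adamtsl5, and those for Ibsp, Dmp1 and the other marker genes, are outside this rule. The 12 alternatives changed the pseudocount, the filter, the scaling or the probe sets of a gene.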

Additional observations from a re-analysis of the deposited data

How the results depend on the processing

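Under the 12 alternatives the number of the 10 genes at least 2-fold higher was 3 to 6 and the number at least 2-fold lower 0. Ltbp2 ranged from 2.55 to 3.56, Lox from 2.13 to 2.77 and Fbln5 from 1.64 to 2.85, all called throughout. The low end of Lox, with poly-A scaling, rests on its brighter probe sets alone, since the dim one then fell below the filter. Relative to the median of all measured genes Lox stood at 2.66 there, against 2.23 as deposited. The median of the measured genes was 1.28. It moved to 0.66 without the filter, which is the value of Loxl1 with its dim probe set averaged in, to 0.66 with poly-A scaling, and to 2.62 with the stricter filter, where only Ltbp2, Fbln5, Lox and Loxl1 were left. Called genes of the 10 kept their sign under these alternatives. Of all calls, 62.9% were higher as deposited, 51.4% with median centring, 51.8% with loess, 49.9% with quantile normalization, 86.4% on the hybridisation scaling and 14.6% on the poly-A scaling. Genes at least 2-fold higher numbered 1293, against 2518 on the hybridisation scaling and 437 on the poly-A scaling. No identifier of the 19 probe sets ends in _s_at or _x_at, so leaving those out changed nothing for them. No paired analysis was possible because each group has 1 array. Signals under the filter limit what can be said of Fbn2 and Fbln2.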
